A study of Mus musculus with 9 samples.

Results

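The response of mouse basophils to 4 hours of interleukin-3 (IL-3) and interleukin-33 (IL-33) was measured by bulk RNA sequencing. Basophils are rare granulocytes that take part in allergic inflammation. Every gene that passed a filter on low counts was followed, 21341 of the 35673 symbols in the deposited table, in 6 of the 9 libraries of the study. Described here are receptors, transcription factors, signalling genes, metabolism, cell cycle and degradation, and the genes that fell, since the best known cytokines make up only a small share of what changed.

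Cells of all groups were labelled as basophils. They were grown from bone marrow of wild-type C57BL/6J mice by culture for 7 days in 0.3 ng/mL IL-3. They were then taken by their CD49b with magnetic particles, and markers of other cells were also present, as given below. The resting group was 3 libraries of 10000 cells given PBS and the vehicle DMSO for 4 hours, and the stimulated group was 3 libraries given IL-3 and IL-33, 10 ng/mL each, with DMSO for the same time. A further 3 libraries, given the same cytokines with 3 µM of the phosphodiesterase inhibitor difamilast, entered the fit and its estimate of the spread, but not the contrast. The resting cells had thus grown in a low concentration of IL-3 and, as labelled, were given none for the 4 hours. They are not cells that never met IL-3. An effect of the added cytokines and an effect of culture IL-3 taken away from resting cells cannot be told apart in this contrast. Whether replicates came from separate mice or cultures is not given in the sources used here. All p-values therefore speak of the spread among the libraries at hand, and that spread may be technical.

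IL-3 acts through a receptor with its own alpha chain and a beta chain shared with the receptors for IL-5 and GM-CSF, and the kinase JAK2 then activates the transcription factor STAT5. IL-33, an alarmin set free by damaged epithelium, binds ST2 (encoded by Il1rl1) with the accessory chain Il1rap, and the adaptor MyD88 leads from there to NF-kB and the MAP kinases. Basophils depend on IL-3 for growth and survival, and both cytokines make them produce type 2 cytokines.

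Total counts were 6261446 to 14795353 in resting and 11798711 to 38098584 in stimulated libraries. Levels are CPM, counts set to a common library size by TMM (a method that holds the bulk of genes level), and are given as mean ± SD over 3 libraries. The 10 most abundant genes took 10.4% to 15.1% of resting and 23.8% to 25.2% of stimulated counts, so the choice of scaling matters: with scaling to total counts the median log2 fold change moved by -0.53. For that reason every list count below is followed by the count obtained with scaling to total counts. Resting replicate 1 stood somewhat apart from the other resting libraries (chi-square per degree of freedom 38.5 and 22.1 against them, and 5.51 between those). Markers of the labelled cell type were present, and 14 of 14 basophil markers were tested. They summed to 9017 to 10481 CPM in resting and 19995 to 20902 CPM in stimulated libraries. The sum holds the chemokine gene Ccl9, which went from 1789 ± 358 to 6587 ± 44.7 CPM. Of the 14, 10 rose and 1 fell. Mcpt8, which encodes a basophil protease, went from 1434 ± 415 to 3455 ± 229 CPM. Itga2, which encodes CD49b, fell from 21.9 ± 2.06 to 12.4 ± 1.22 CPM, and Prss34, Cd200r3 and Hdc were not called. Monocyte and macrophage markers were also present, at 6130 to 7646 CPM in resting and 4754 to 5058 CPM in stimulated libraries. None of the 13 was at 0 in all libraries, and 8 of them fell and 1 rose. Dendritic cell markers summed to 1815 to 2287 and 1951 to 2066 CPM, and mast cell markers to 486 to 801 and 763 to 830 CPM. Erythroid and megakaryocyte markers summed to 511 to 702 and 312 to 447 CPM, and of these Itga2b alone was called, 1.98-fold lower. The part of such cells in the falls below was not tested. In bulk RNA, fewer cells of a type and less RNA per cell cannot be told apart.

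Stimulation changed 6770 of the 21341 genes (31.7%) by edgeR's quasi-likelihood test at an adjusted p of 0.05. Of these, 3273 were higher (15.3% of those tested) and 3497 were lower (16.4%). At least 2-fold higher were 1600 genes (7.5%), and at least 2-fold lower were 1341 (6.28%). Large changes were more often rises: 549 called genes were at least 4-fold higher and 217 at least 4-fold lower. The 3 resting and 3 stimulated values did not overlap in 6545 of the 6770 called genes. A call itself makes this likely and the share over all genes tested was not taken, so the count adds no support. Among the 9495 genes that reached 10 CPM, 21.1% rose and 26.3% fell, and these are the shares to read most of the lists below against, since their members are largely expressed genes. With scaling to total counts 1326 genes were called higher and 8749 lower, so that 13.2% of calls were rises in place of 48.3%, and 476 of the main calls had the opposite sign. A rise or fall below is thus relative to the other genes of the library. That the groups do not overlap was a condition for the genes that the rule names. Where it is stated for them below, it describes the choice and adds no support.

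**Figure D1:**
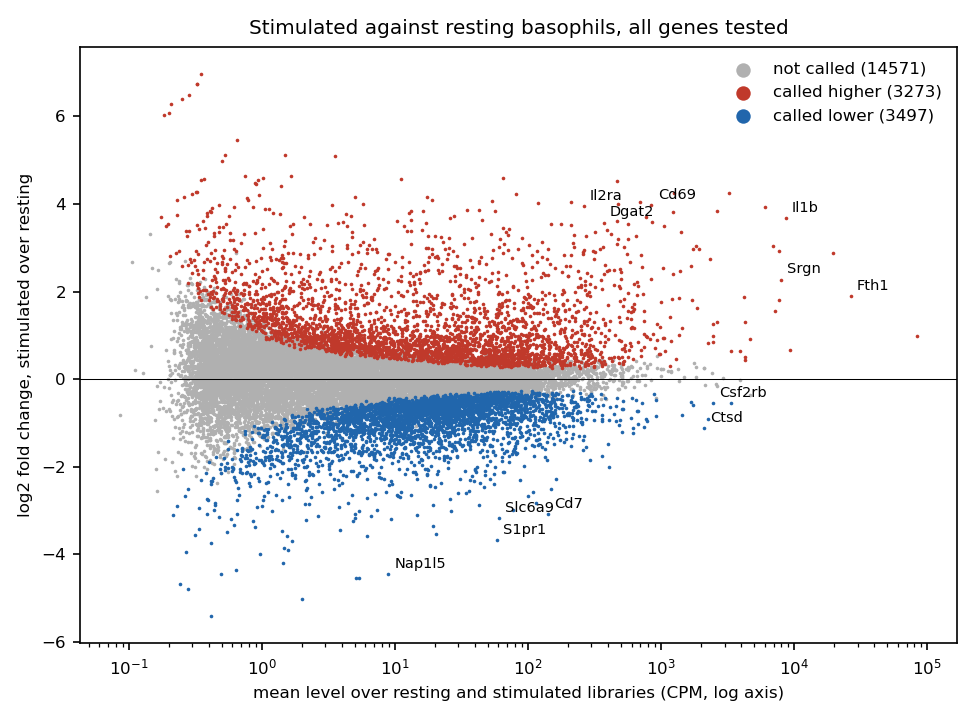
Each point is 1 of 21341 genes, with its mean level over the resting and stimulated libraries (CPM, log axis) across and its log2 fold change, stimulated over resting, upwards. The 3273 genes called higher are red, the 3497 called lower are blue and the rest grey; rises extend further from 0 than falls, also among abundant genes such as Fth1 and Il1b.

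The largest rises by log2 fold change are given first, among called genes of at least 10 CPM in the higher group that lie outside the cytokine and chemokine lists and whose groups do not overlap; predicted genes and pseudogenes were left out. Rarer transcripts reached larger fold changes. Aldh1a3 (chromosome 7, 66390890 to 66427517 in GRCm38), a retinaldehyde dehydrogenase that makes retinoic acid, lay at 5.45, 5.94 and 6.97 CPM in resting and 109.6, 92.7 and 99.4 CPM in stimulated libraries. Each stimulated library stood far above each resting library, and the gene was 16.6-fold higher (log2 fold change 4.05 ± 0.14 (SE), adjusted p = 1.72e-11 in edgeR). Mir155hg (chromosome 16, 84703167 to 84715245), the host transcript of the microRNA miR-155, lay at 20.3, 25.7 and 26.3 CPM in resting and 402, 434 and 349 CPM in stimulated libraries, 16.4-fold higher. Traf1, an adaptor of TNF receptors, went from 79.7 ± 10.8 to 1308 ± 125 CPM, and the activation marker Cd69 from 101 ± 5.15 to 1593 ± 13.7 CPM. Il2ra, the alpha chain of the IL-2 receptor, lay at 30.7, 36.1 and 27.6 CPM in resting and 498, 498 and 478 CPM in stimulated libraries, 15.5-fold higher. Sdc4, a heparan sulphate proteoglycan of the cell surface, rose 12.9-fold from 111 ± 23.5 to 1431 ± 35.1 CPM. Other rises by the same rule were Ccl20 (a chemokine that the list does not hold, 16-fold), the muscle LIM protein gene Csrp3 (14.6-fold), Tpbg, which encodes the trophoblast glycoprotein (14.4-fold), Fbxl21, an F-box protein gene (14.3-fold) and the adaptor gene Scimp (12.3-fold). Over the 15 genes that the rule takes the adjusted p in edgeR ran up to 2.26e-08.

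Of the 15, 3 lie together on chromosome 12 and encode clade A serine protease inhibitors. Serpina3f (104214544 to 104221129) went from 4.44 ± 0.463 to 64.7 ± 7.9 CPM, Serpina3g (104236245 to 104241939) from 56.4 ± 4.51 to 897 ± 43 CPM and Serpina3i (104263122 to 104269372) from 3.73 ± 0.205 to 48.3 ± 1.34 CPM, or 14.4-fold, 15.9-fold and 12.9-fold. They are close copies of each other, so reads may have been assigned between them. Their promoters are shown because all 3 hold the spaced palindrome TTCNNNGAA, the letters bound by STAT5, in the 250 bases before a RefSeq start site (GRCm38.p6, searched on both strands). Beside them are the promoters of Sdc4, with a match to NF-kB letters (GGGANTTCC or GGANTTTCC), and of Tpbg, with 2 matches to AP-1 letters (TGANTCA, which does not overlap the cAMP element TGACGTCA as searched). Capitals mark the matches, and each sequence is given 5′ to 3′ on the gene's strand. The windows are chr12:104235897-104236146 (+), chr12:104214294-104214543 (+), chr12:104262872-104263121 (+), chr2:164443189-164443438 (-) and chr9:85842130-85842379 (+). The promoters shown were picked for these letters. Mir155hg, Traf1 and Il2ra, also among the 15 rises, held no STAT5, NF-kB or AP-1 letters in their RefSeq windows. The 3 Serpina3 promoters are alike around the match, so they are not 3 independent matches. Among the 15 largest falls, described further on, Rnf144b and Eef2k also hold STAT5 letters in such a window, and another start of Eef2k holds NF-kB letters.
Serpina3g: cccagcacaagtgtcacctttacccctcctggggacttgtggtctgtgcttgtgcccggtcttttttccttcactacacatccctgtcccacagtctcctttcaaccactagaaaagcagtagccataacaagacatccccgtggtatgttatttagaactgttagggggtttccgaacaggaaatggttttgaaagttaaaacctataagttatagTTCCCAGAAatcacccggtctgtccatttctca
Serpina3f: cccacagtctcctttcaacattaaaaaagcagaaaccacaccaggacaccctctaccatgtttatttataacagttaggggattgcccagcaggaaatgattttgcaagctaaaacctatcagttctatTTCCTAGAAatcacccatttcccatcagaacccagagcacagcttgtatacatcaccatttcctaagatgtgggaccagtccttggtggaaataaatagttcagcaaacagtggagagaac
Serpina3i: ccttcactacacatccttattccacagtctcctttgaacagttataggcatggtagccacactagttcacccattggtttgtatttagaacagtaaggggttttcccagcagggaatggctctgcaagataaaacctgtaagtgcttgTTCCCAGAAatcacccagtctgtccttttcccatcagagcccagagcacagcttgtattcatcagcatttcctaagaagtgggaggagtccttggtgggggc
Sdc4: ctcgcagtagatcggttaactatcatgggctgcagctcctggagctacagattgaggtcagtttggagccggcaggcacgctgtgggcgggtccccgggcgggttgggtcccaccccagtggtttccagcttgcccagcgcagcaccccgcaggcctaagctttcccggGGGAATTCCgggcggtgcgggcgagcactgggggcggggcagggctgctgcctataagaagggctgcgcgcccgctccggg
Tpbg: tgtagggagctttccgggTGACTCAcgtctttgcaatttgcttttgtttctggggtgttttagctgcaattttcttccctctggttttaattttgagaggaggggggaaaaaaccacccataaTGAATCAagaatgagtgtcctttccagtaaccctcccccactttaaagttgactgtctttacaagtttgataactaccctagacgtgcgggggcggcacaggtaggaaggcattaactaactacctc
The STAT5 letters begin 33 bases before the start in Serpina3g, 121 in Serpina3f and 102 in Serpina3i, the NF-kB letters 81 bases before it in Sdc4, and the AP-1 letters 232 and 127 bases before it in Tpbg.

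RefSeq windows of 300 bases (250 before and 50 after each start) were matched to 12922 of the 21341 tested genes, 16231 windows in all, and to 21 of the 30 most changed genes. AP-1 letters were in 12.7% of the 1218 windows of genes at least 2-fold higher, in 4.8% of the 1312 windows of genes at least 2-fold lower and in 6.25% of all windows. STAT5 letters were in 10.4%, 6.25% and 7.26%, and NF-kB letters in 5.09%, 2.9% and 3.41%, in the same order. Shares of the cAMP element were 2.05%, 1.83% and 2.62%, and those of the E box CACGTG 6.9%, 8.77% and 8.85%. The cell cycle element TTTGAA was in 17.7%, 16% and 14.6%, and CCAAT in 33.7%, 39.9% and 37.8%. A match describes letters and does not show a bound site.

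The largest falls were taken by the same conditions on level and overlap. S1pr1 (chromosome 3, 115710433 to 115715072), which encodes the sphingosine 1-phosphate receptor that guides leukocytes out of tissues, lay at 122, 97.3 and 106 CPM in resting and 8.66, 8.85 and 7.98 CPM in stimulated libraries. It was 12.8-fold lower (log2 fold change -3.67 ± 0.15, adjusted p = 7.34e-11 in edgeR). Slc6a9, the glycine transporter gene, lay at 143, 90.3 and 91.4 CPM in resting and 13, 11.8 and 11.6 CPM in stimulated libraries, 8.97-fold lower. Cd7, a surface protein of the immunoglobulin superfamily, lay at 161, 292 and 309 CPM in resting and 28.4, 28.6 and 32.5 CPM in stimulated libraries. The resting libraries thus spread more than the stimulated ones in Cd7, with resting replicate 1 the lowest, but no resting value came near a stimulated one. Smad6, an inhibitor of BMP signalling, fell from 12 ± 3.76 to 1.32 ± 0.385 CPM, and Eef2k, the kinase that slows translation elongation, from 44.7 ± 6.79 to 6.85 ± 1.24 CPM. The remaining falls were Nap1l5, a nucleosome assembly protein-like gene (21.7-fold lower), the stress cytokine gene Gdf15 (11.9-fold), Nxpe4 (11.5-fold), Samd13 (9.09-fold), the ubiquitin ligase gene Rnf144b (8.07-fold), Rapsn, which encodes the scaffold of acetylcholine receptors (7.87-fold), Cables1 (7.87-fold), Fam117a (7.35-fold), the sialyltransferase gene St6galnac3 (7.3-fold) and the lysophospholipase gene Pnpla7 (7.08-fold). The 30 genes that the rule takes kept direction and call in every alternative, scaling to total counts included.

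**Figure D2:**
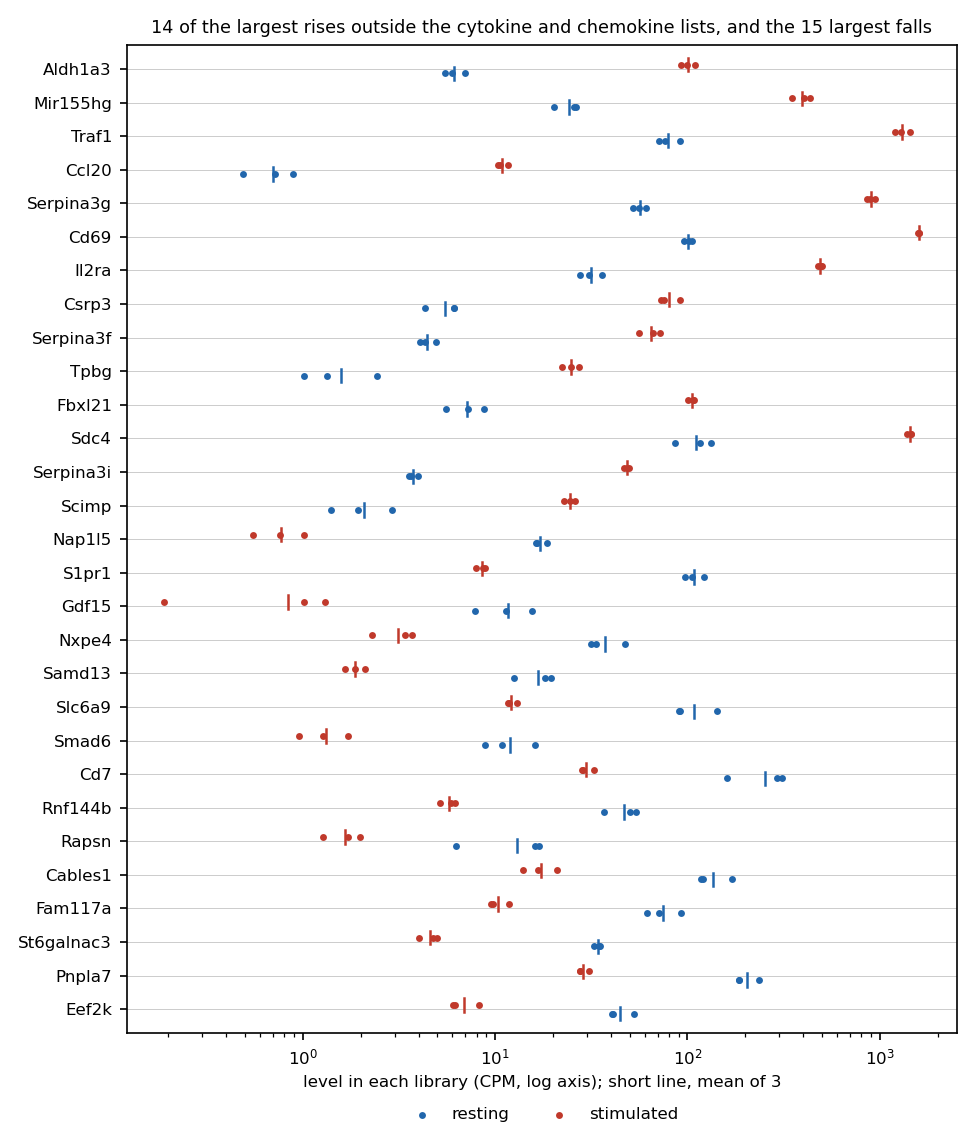
Level of 29 of the 30 most changed genes in the 3 resting (blue) and 3 stimulated (red) libraries, in CPM on a log axis, with a short line at the mean of 3. The upper 14 genes rose and the lower 15 fell; that the groups do not overlap was a condition of the choice.

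Gains and losses in CPM (not per length) were largest for other features. CT010467.1, the most abundant feature of the table (chromosome 17, 39846353 to 39848827), took 5.37%, 8.38% and 7.67% of counts in resting and 9.84%, 8.59% and 10.96% in stimulated libraries, and in TMM-scaled CPM it was 1.97-fold higher (adjusted p = 0.00243 in edgeR; not called without resting replicate 1, at 0.0909, or with scaling to total counts, at 0.0566). The noncoding locus AC160336.1 went from 0.59% ± 0.0725 to 3.04% ± 0.186 of counts. Accession-like and predicted names such as these were left out of the rule for named genes, which the rest follow. Fth1, the heavy chain of the iron store ferritin, rose from 1.03%, 1.66% and 1.58% of counts in resting libraries to 3.71%, 3.71% and 3.65% in stimulated ones. Resting replicate 1 was the lowest of the resting libraries, and all of them were far below the stimulated libraries. In TMM-scaled CPM it went from 11268 ± 3061 to 41890.2 ± 169 CPM, 3.72-fold. Srgn, the core protein of granule proteoglycans, had the next gain among named genes outside the cytokines and chemokines, from 2721 ± 777 to 13163 ± 314 CPM, and then Tmsb4x, which encodes the actin-binding thymosin beta 4, from 3407 ± 929 to 11998 ± 1699.7 CPM. The ferritin light chain gene Ftl1 rose 1.58-fold, but was not called with scaling to total counts (adjusted p = 0.507 in edgeR). The largest losses by the rule began with the protease gene Ctsd, from 2890.0 ± 500.1 to 1332 ± 23.1 CPM, the sphingolipid activator gene Psap, from 2927 ± 891 to 1568 ± 28.6 CPM, and the lysozyme gene Lyz2, from 3957 ± 483 to 2736 ± 36.3 CPM. Csf2rb and Csf2rb2, described below, came next with the protease gene Ctsb, which fell from 1819 ± 318 to 1033 ± 49.1 CPM, and then the lipoprotein gene Apoe, from 1964 ± 294 to 1378 ± 90.01 CPM. Alox5ap, whose product hands arachidonate to 5-lipoxygenase, fell from 1009 ± 359 to 477 ± 16 CPM, Grina from 1169.9 ± 69.2 to 652 ± 7.3 CPM and the membrane glycoprotein gene Gpnmb from 1028 ± 265 to 528 ± 5.71 CPM. Lyz2 and Apoe are the most abundant of the monocyte and macrophage markers, whose sum was lower in all stimulated libraries; the part of such cells in these losses was not tested.

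The receptors of the 2 ligands themselves were read whatever their change, and of these the rule for named genes takes only the beta chain genes. The ST2 gene Il1rl1 lay at 514, 517 and 617 CPM in resting and 1175, 1449.8 and 1333 CPM in stimulated libraries, 2.4-fold higher, and Il3ra, the IL-3 receptor alpha chain, at 51.2, 53.6 and 55.6 CPM in resting and 69.5, 83.9 and 80.1 CPM in stimulated libraries, 1.46-fold higher. The beta chain genes moved the other way: Csf2rb fell from 2884 ± 352 to 1984 ± 58.4 CPM and its near copy Csf2rb2, whose reads may be shared with it, from 2089 ± 336 to 1385 ± 107 CPM. Il1rap had a log2 fold change of -0.42 ± 0.16 and was not called (adjusted p = 0.0577 in edgeR), though 9 of 15 alternatives called it lower: without resting replicate 2 (adjusted p = 0.0328), resting replicate 3 (0.0319) or stimulated replicate 1 (0.021), by DESeq2 (0.0378) and limma-voom (0.036), with RLE scaling (0.0438), without the filter (0.0167), with the replicate block (0.0381) and with scaling to total counts (log2 fold change -0.95). Jak2, the kinase bound to the beta chain, rose 5.56-fold, from 419.7 ± 52.4 to 2334 ± 134 CPM, while Jak1 rose 1.29-fold. Il3ra and Jak1 were not called higher with scaling to total counts (log2 fold change 0.02 and -0.16).

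Of cytokine receptors, 14 of 42 tested members rose and 13 fell (9 and 22 with scaling to total counts). Those that rose were led by Il2ra, and then Il15ra (5.34-fold), Il4ra, the receptor chain of IL-4 and IL-13 (2.66-fold), and Ifngr2 (2.64-fold). Chains of 1 receptor parted: Ifngr2 rose from 81.8 ± 9.12 to 215 ± 16.4 CPM while its partner Ifngr1 fell from 158 ± 6.58 to 56.1 ± 0.54 CPM. Both chains of the receptor for IL-18, the relative of IL-33 that signals by the same adaptor, fell: Il18r1 lay at 121, 119.6 and 115 CPM in resting and 47.5, 42 and 40.8 CPM in stimulated libraries and Il18rap at 296, 273 and 249.9 CPM in resting and 105, 103 and 94.7 CPM in stimulated libraries. Il18r1 and Il18rap were 2.74-fold and 2.71-fold lower, beside the 2.4-fold rise of Il1rl1, and a lack of overlap was a condition of their choice. The receptor chain shared by IL-2, IL-4 and other cytokines, Il2rg, rose 2.58-fold and the TSLP receptor gene Crlf2 2.29-fold. Il2rb fell 1.8-fold, and not without resting replicate 1 (adjusted p = 0.052 in edgeR).

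In the TNF receptor superfamily 12 of 23 tested members rose and 3 fell (8 and 7 with scaling to total counts). The death receptor gene Fas lay at 20.2, 16.1 and 15.2 CPM in resting and 162, 157 and 167 CPM in stimulated libraries, 9.38-fold higher, and Tnfrsf9, which encodes the costimulatory receptor 4-1BB, at 142, 150.1 and 141 CPM in resting and 783, 838 and 874 CPM in stimulated libraries, 5.75-fold higher. Each stimulated library was well above each resting library in both. Tnfrsf18, which encodes GITR, rose 3.33-fold and Tnfrsf12a 2.34-fold, while the lymphotoxin beta receptor gene Ltbr fell 1.55-fold. Cd40 had a log2 fold change of 0.42 ± 0.16 and was not called (adjusted p = 0.0607 in edgeR), but 6 of 15 alternatives called it higher: without resting replicate 3 (adjusted p = 0.0177) or stimulated replicate 2 (0.0369), with the replicate block (0.0277), by limma-voom (0.0427), without the filter (0.0473) and after removal of the length trend (0.0286).

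Receptors for chemoattractants and lipid mediators changed in both directions, and 12 of 35 tested members rose and 12 fell (4 and 18 with scaling to total counts) of this list. Cysltr2, a receptor for cysteinyl leukotrienes, lay at 5.87, 5.01 and 3.55 CPM in resting and 44.9, 49.6 and 44 CPM in stimulated libraries, 9.35-fold higher. Ltb4r1, a receptor for leukotriene B4, rose 2.47-fold. Besides S1pr1, the monocyte chemokine receptor gene Ccr2 fell from 86.3 ± 13.8 to 17.9 ± 1.05 CPM, the fractalkine receptor gene Cx3cr1 from 19.6 ± 3.53 to 5.71 ± 0.536 CPM and the oxysterol receptor gene Gpr183 from 54.9 ± 2.31 to 19 ± 1.71 CPM. Ccr2 and Cx3cr1 stand among the monocyte and macrophage markers, whose fallen members also include Lyz2, Apoe, Csf1r, C1qa and C1qb, and Ly6c2 and Adgre1 were not called; the part of these cells was not tested. Of the other G protein coupled receptors, 9 of 34 tested members rose and 12 fell (7 and 16 with scaling to total counts). Adora2b, a receptor for adenosine, lay at 52, 48.8 and 52.6 CPM in resting and 496, 470.1 and 517 CPM in stimulated libraries; the ADP receptor gene P2ry1 rose 3.28-fold and the histamine receptor gene Hrh2 4.13-fold. P2ry10 lay at 693, 606 and 642 CPM in resting and 158, 157 and 170.0 CPM in stimulated libraries and Adgre5, which encodes the adhesion receptor CD97, at 348, 229.9 and 224 CPM in resting and 55.7, 53.1 and 57.2 CPM in stimulated libraries, so that the stimulated libraries were lower throughout, by 4-fold and 4.84-fold.

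Of Fc, paired and lectin receptors, 22 of 52 tested members rose and 15 fell (12 and 26 with scaling to total counts). Without stimulated replicate 2, 8 members fell. Havcr2, which encodes the inhibitory receptor TIM-3, lay at 96.8, 117 and 118 CPM in resting and 971, 1087 and 988 CPM in stimulated libraries, and Milr1, an inhibitory receptor of mast cells known as allergin 1, at 24.5, 27.7 and 26.7 CPM in resting and 231, 235 and 221 CPM in stimulated libraries. All stimulated libraries were above all resting ones, by 9.16-fold and 8.7-fold. The activating receptor gene Pilrb1 rose 6.2-fold and Lilrb4a, inhibitory, 2.49-fold to 6139 CPM. The SLAM family gene Cd84 fell 2.4-fold and the lectin receptor gene Clec4d 1.63-fold. The basophil marker Cd200r3 had a log2 fold change of 0.08 ± 0.11. Of pattern recognition receptors, 9 of 31 tested members rose and 9 fell (7 and 15 with scaling to total counts): the inflammasome sensor gene Nlrp3 rose from 106 ± 12.3 to 479.8 ± 11.5 CPM, the nucleic acid sensor gene Zbp1 from 31.2 ± 1.5 to 184 ± 0.127 CPM, and the RNA sensor gene Ddx58, which encodes RIG-I, 3.1-fold, whereas Cd180, Tlr13 and Naip5 fell 2.45-fold, 2.38-fold and 2.28-fold. Tlr2 had a log2 fold change of -0.04 ± 0.14.

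Of integrins and adhesion molecules, 10 of 40 tested members rose and 14 fell (5 and 25 with scaling to total counts). Icam1, the ligand of leukocyte integrins, rose from 59.5 ± 5.93 to 354 ± 7.49 CPM, the tetraspanin gene Cd82 3.04-fold and Cd47, the signal against engulfment, 2.48-fold. Itgb3, which encodes integrin beta 3, lay at 414, 366 and 400.5 CPM in resting and 133, 107 and 147 CPM in stimulated libraries, and Cd93 at 428, 483 and 474 CPM in resting and 127, 130.2 and 126 CPM in stimulated libraries. Both were lower in each stimulated library than in each resting library, by 3.06-fold and 3.61-fold. Itgb5 fell 2.26-fold. Surface ligands and costimulatory molecules had more rises: 17 of 33 tested members rose and 9 fell (11 and 12 with scaling to total counts), and 5 fell without stimulated replicate 2. Tnfsf14, which encodes the TNF family ligand LIGHT, rose from 46.9 ± 2.68 to 269.8 ± 23.5 CPM. The nucleotidase gene Entpd1, which encodes CD39, fell 2.15-fold and Vsir, which encodes the checkpoint protein VISTA, 1.84-fold.

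Families of transcription factors differed in their calls (the plot of calls in each gene list). All members of the NF-kB family that were called rose, and 10 of 12 tested members rose and 0 fell (10 and 0 with scaling to total counts). None fell by edgeR, with 0 at an unadjusted p of 0.05, 0 by DESeq2 and 0 by limma-voom. Nfkbia, the inhibitor IkB alpha, lay at 445, 497 and 494 CPM in resting and 2771, 2846 and 2952 CPM in stimulated libraries, 5.97-fold higher. Nfkb1 rose from 155 ± 5.45 to 842 ± 66.7 CPM, Nfkb2 from 93.8 ± 22.2 to 405 ± 21.1 CPM, the atypical IkB gene Nfkbiz from 73.1 ± 0.541 to 405 ± 11.3 CPM and Bcl3 from 19.4 ± 1.75 to 131 ± 6.71 CPM. Rela, the subunit that carries most NF-kB activity, had a log2 fold change of 0.35 ± 0.18 and was not called (adjusted p = 0.158 in edgeR), though it was without resting replicate 1 (adjusted p = 6.74e-05).

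Among AP-1, ATF, MAF and C/EBP factors, 18 of 45 tested members rose and 12 fell (8 and 21 with scaling to total counts). Batf, a partner of JUN and IRF4 in lymphocytes, lay at 15.6, 25.4 and 25.1 CPM in resting and 184, 182 and 182 CPM in stimulated libraries, 8.31-fold higher. Maff rose 4.18-fold, Jund 3.42-fold and Junb 3.15-fold. In the FOS family Fos lay at 108, 108 and 106 CPM in resting and 21.5, 21.3 and 30.8 CPM in stimulated libraries and Fosb at 18.8, 12.1 and 11.4 CPM in resting and 5.33, 3.89 and 4.35 CPM in stimulated libraries, 4.35-fold and 3.2-fold lower. Fosl2 fell 1.42-fold, and was not called without stimulated replicate 2 (adjusted p = 0.0529 in edgeR). Fosl1 rose 2.61-fold, from 1.52 ± 0.231 to 3.9 ± 0.912 CPM, but not after thinning (adjusted p = 0.0592 in edgeR). The PAR-domain factor gene Hlf fell 3.47-fold and Nfe2, a factor of megakaryocytes and erythroid cells, 2.13-fold. Nfe2l2, the regulator of antioxidant genes, had a log2 fold change of 0.07 ± 0.09 and was not called. Of IRF and STAT factors, 9 of 15 tested members rose and 1 fell (5 and 6 with scaling to total counts). Irf4 lay at 4.34, 4.13 and 2.28 CPM in resting and 39.5, 31.2 and 37.9 CPM in stimulated libraries and Stat5a at 91, 78.9 and 78 CPM in resting and 413, 409.9 and 409 CPM in stimulated libraries, 9.67-fold and 4.97-fold higher. Stat5b, the near relative of Stat5a, had a log2 fold change of -0.35 ± 0.16 (adjusted p = 0.116 in edgeR; called lower without resting replicate 2, at 0.0116, and without the filter, at 0.0256), Stat3 of 0.10 ± 0.14 (adjusted p = 0.635) and Stat6 of 0.07 ± 0.12 (adjusted p = 0.706), and none of these 3 was called with all libraries, though all 3 were called lower with scaling to total counts (log2 fold change -0.89, -0.43 and -0.46). Irf8, which directs cells to the monocyte and dendritic lineages, fell 1.64-fold.

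Of EGR, KLF and other zinc finger factors, 16 of 46 tested members rose and 10 fell (10 and 20 with scaling to total counts). The early growth response genes Egr1, Egr2 and Egr3 rose 7.57-fold, 9.26-fold and 5.5-fold. In the Ikaros family Ikzf4 lay at 12.7, 14.3 and 13.4 CPM in resting and 106, 113 and 106 CPM in stimulated libraries and Ikzf3 at 39.3, 28.1 and 25.2 CPM in resting and 9.61, 9.8 and 7.78 CPM in stimulated libraries, so that Ikzf4 was higher and Ikzf3 lower in every stimulated library. Klf11 fell 3.15-fold and Klf13 1.88-fold. Haematopoietic lineage factors had more falls, and 11 of 58 tested members rose and 22 fell (7 and 36 with scaling to total counts). Id1, an inhibitor of basic helix-loop-helix factors, lay at 45.6, 74.5 and 62.8 CPM in resting and 458, 464 and 439 CPM in stimulated libraries, 7.44-fold higher. Gata2, the GATA factor that basophils need, lay at 929, 773 and 792 CPM in resting and 1541, 1511 and 1539.5 CPM in stimulated libraries, 1.84-fold higher, and Tal1 rose 2.58-fold. Erg, a factor of stem cells and megakaryocytes, fell from 19.2 ± 1.31 to 2.88 ± 0.601 CPM and the lysosome regulator gene Tfeb from 19.96 ± 0.345 to 8.08 ± 1.45 CPM. The paired clock-linked repressors moved apart: Bhlhe40 rose 3.09-fold and Bhlhe41 fell 2.47-fold. Spi1, the master factor of myeloid cells, had a log2 fold change of -0.01 ± 0.12 (adjusted p = 0.945 in edgeR).

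Of MYC, HIF, clock and E2F factors, 5 of 46 tested members rose and 22 fell (2 and 34 with scaling to total counts). Ahr, the aryl hydrocarbon receptor, rose from 9.92 ± 1.05 to 47.1 ± 5.15 CPM. Of the antagonists of MYC, Mnt fell from 43.4 ± 4.54 to 13.9 ± 2.04 CPM and Mxi1 from 84.1 ± 13.1 to 32.3 ± 0.703 CPM, while Mxd1 rose 1.42-fold and was not called with scaling to total counts. E2f8, a repressor of the late cell cycle, fell 3.27-fold. The clock genes Nr1d2 and Rora fell 2.61-fold and 2.35-fold. Of nuclear receptors, 6 of 28 tested members rose and 13 fell (4 and 18 with scaling to total counts): the orphan receptor gene Nr4a3 rose from 24.6 ± 1.27 to 155 ± 2.6 CPM and the retinoic acid receptor gene Rara from 22.8 ± 1.41 to 70.3 ± 1.91 CPM, while its relative Rarg fell from 20.5 ± 2.48 to 7.51 ± 1.16 CPM. Nr3c1, the glucocorticoid receptor gene, lay at 185, 199 and 181 CPM in resting and 67, 66.1 and 62 CPM in stimulated libraries, 2.9-fold lower, and its well known target Tsc22d3, which encodes GILZ, at 90.8, 70.7 and 68 CPM in resting and 25.9, 26.4 and 28.4 CPM in stimulated libraries, 2.84-fold lower. In both every stimulated library was below every resting library. Of NFAT, SRF, SMAD and other signal-dependent factors, 7 of 39 tested members rose and 11 fell (6 and 24 with scaling to total counts). Nfat5, the factor known from osmotic stress, lay at 172, 175 and 161 CPM in resting and 829, 836 and 813 CPM in stimulated libraries, 4.88-fold higher, whereas Nfatc1 and Nfatc2, which answer to calcium, fell 2.04-fold and 2.07-fold. Mrtfa, a coactivator of SRF, fell from 78.3 ± 21.2 to 20.1 ± 1.19 CPM, and Rbpj, the nuclear effector of Notch, rose from 73.7 ± 6 to 285 ± 3.34 CPM.

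**Figure D3:**
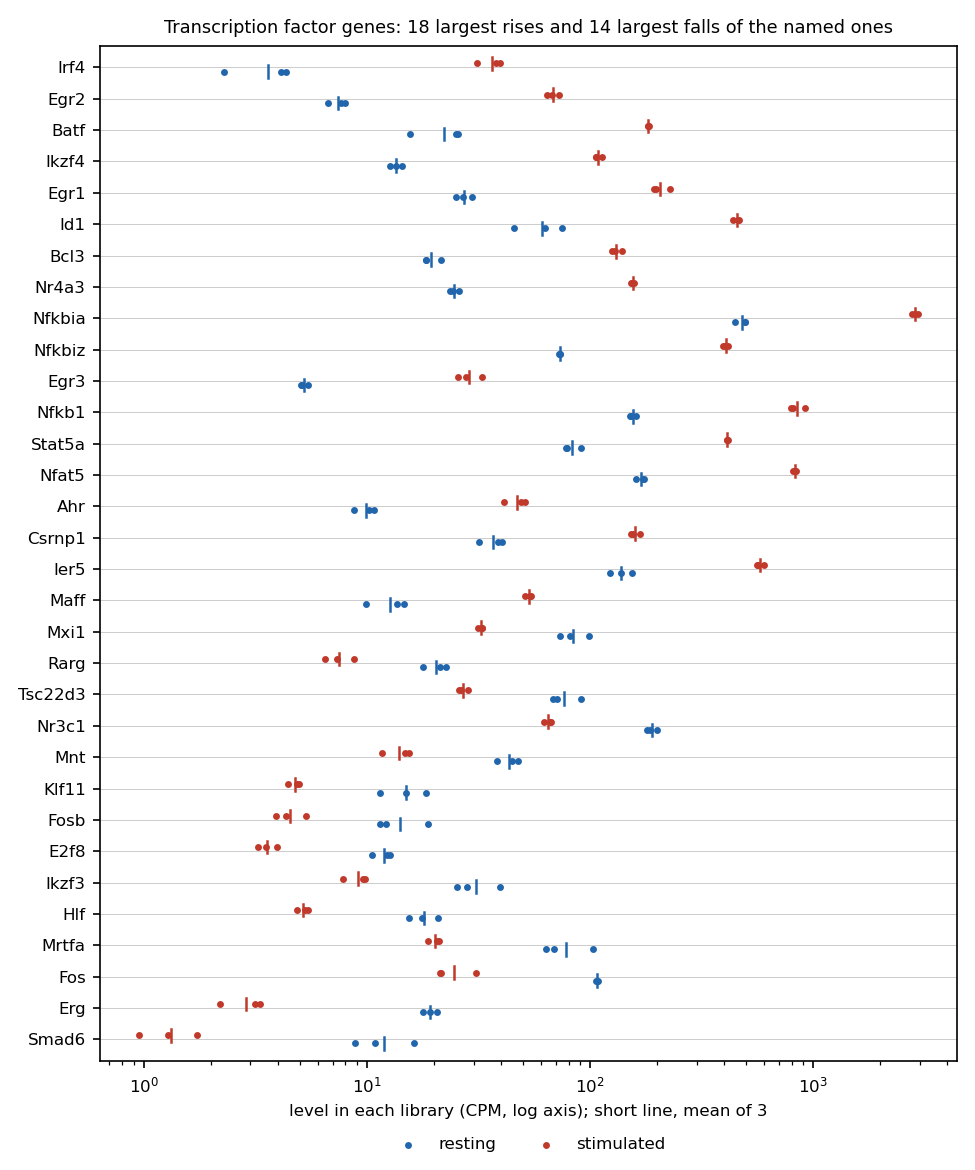
Level of 32 transcription factor genes in the 3 resting (blue) and 3 stimulated (red) libraries, in CPM on a log axis, with a short line at the mean of 3. Shown are the 18 largest rises and 14 largest falls among the named genes of the transcription factor lists; genes whose groups overlap were left out by the rule for named genes, and the rows run from Irf4 at the top to Smad6 at the bottom.

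Of SOCS, PIM and STAT5 feedback genes, 18 of 37 tested members rose and 7 fell (13 and 14 with scaling to total counts). Socs3 lay at 164, 178 and 175 CPM in resting and 1909, 1927 and 1972 CPM in stimulated libraries, Cish at 248, 260.1 and 233 CPM in resting and 2534, 2525 and 2595 CPM in stimulated libraries and Socs1 at 102, 131 and 134 CPM in resting and 1178, 1153 and 1197 CPM in stimulated libraries, all inhibitors of cytokine receptor signalling. The stimulated libraries were higher throughout, by 11.2-fold, 10.3-fold and 9.61-fold. Those that fell were led by the death genes Bmf, Bbc3 and Bid, 2.96-fold, 2.29-fold and 2.27-fold lower. The survival gene Mcl1 had a log2 fold change of 0.18 ± 0.11 and was not called (adjusted p = 0.237 in edgeR; 0.0446 without resting replicate 1); with scaling to total counts it was called lower, by a log2 fold change of -0.35 (adjusted p = 0.038). Of NF-kB and MAPK feedback genes, 32 of 48 tested members rose and 5 fell (17 and 13 with scaling to total counts), and 3 fell without stimulated replicate 2 or without stimulated replicate 3. Gadd45b rose from 79.1 ± 15.4 to 615 ± 34.7 CPM and the endoribonuclease gene Zc3h12a, which encodes Regnase-1, from 54.4 ± 8.88 to 328 ± 6.32 CPM, while Zfp36l2, a factor that shortens the life of mRNA, fell from 313 ± 39.4 to 108 ± 3.44 CPM.

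Of G protein, PI3K and small GTPase regulators, 11 of 66 tested members rose and 32 fell (6 and 51 with scaling to total counts). The guanine nucleotide exchange factor gene Dock10 rose from 123 ± 6.06 to 694 ± 22.8 CPM, and Pik3cd, the PI3K catalytic subunit p110 delta, from 122 ± 25.7 to 357 ± 32.8 CPM. Pik3ip1, an inhibitor of PI3K, fell from 12.3 ± 1.31 to 1.86 ± 0.787 CPM and the regulatory subunit gene Pik3r2 from 12.7 ± 2.76 to 3.62 ± 0.171 CPM. Prkacb, a catalytic subunit of protein kinase A, lay at 276, 231 and 248 CPM in resting and 45.5, 42.7 and 44.9 CPM in stimulated libraries, 5.68-fold lower. Both arrestin genes fell, Arrb1 2.66-fold and Arrb2 2.69-fold, as did Rasgrp2, an exchange factor of RAP1, 2.61-fold. The abundant Gnai2, a G protein alpha subunit, had a log2 fold change of -0.05 ± 0.10 (adjusted p = 0.756 in edgeR).

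In sugar metabolism, 5 of 35 tested members rose and 11 fell (3 and 23 with scaling to total counts) of the glycolysis list. The transporter genes Slc2a6 and Slc2a3 rose 3.23-fold and 2.36-fold, whereas Slc2a1 had a log2 fold change of 0.20 ± 0.13 and was not called (adjusted p = 0.25 in edgeR; 0.0259 without resting replicate 1). The list's shares were 14.3% risen and 31.4% fallen, beside 21.1% and 26.3% of the genes that reached 10 CPM. Of the enzyme genes that fell, Gpi1, which encodes glucose 6-phosphate isomerase, lay at 375, 263 and 281 CPM in resting and 113, 118 and 132 CPM in stimulated libraries, 2.54-fold lower. Hk2 fell 1.59-fold, Aldoa 1.47-fold, Ldha 1.51-fold and Ldhb 2.58-fold. The arrestin-like genes that restrain glucose uptake parted, with Txnip 2.02-fold lower and Arrdc4 3-fold higher. Of the pentose phosphate and NADPH list, 2 of 15 tested members rose and 11 fell (0 and 13 with scaling to total counts). Taldo1, which encodes transaldolase, lay at 520.1, 679 and 735 CPM in resting and 321, 298 and 323 CPM in stimulated libraries, 2.05-fold lower, and Me2 and Idh1, which make NADPH or NADH from organic acids, fell 3.38-fold and 2.8-fold. G6pdx, the entry enzyme, had a log2 fold change of -0.13 ± 0.14 and was not called (adjusted p = 0.509 in edgeR).

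Mitochondrial lists differed in how many of their genes were called. Of the citric acid cycle and pyruvate entry list, 2 of 34 tested members rose and 10 fell (0 and 29 with scaling to total counts), and no called member changed 2-fold. Of 72 tested genes of the nuclear respiratory chain and ATP synthase, 2 rose and 0 fell by edgeR. The shares were 15.3% and 16.4% of all tested genes, and 21.1% and 26.3% of those that reached 10 CPM. At an unadjusted p of 0.05, 3 were lower, DESeq2 called 3 and limma-voom 1 lower, and without resting replicate 1 edgeR called 3 lower and without resting replicate 2 it called 6 higher. With scaling to total counts 1 rose and 29 fell, so the balance of this list depends on the scaling. The largest change was in Cycs, which encodes cytochrome c, from 25.7 ± 6.55 to 54.2 ± 4.46 CPM. Of the 13 mitochondrially encoded protein genes, 0 rose and 0 fell by edgeR (0 at an unadjusted p of 0.05, 0 and 0 by DESeq2, 0 and 0 by limma-voom), and 5 fell with scaling to total counts. The median log2 fold changes of the 2 lists were 0.16 and 0.18, beside 0.06 over all genes tested.

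Nucleotide genes fell more often than they rose, and 5 of 44 tested members rose and 16 fell (2 and 31 with scaling to total counts) of that list, with 3 risen without stimulated replicate 1. Upp1, which encodes uridine phosphorylase, lay at 103, 129 and 125 CPM in resting and 590.4, 616 and 665 CPM in stimulated libraries, 5.24-fold higher. The salvage kinase genes Dck and Tk2 fell 3.38-fold and 2.32-fold. Of serine, one-carbon and polyamine metabolism, 6 of 36 tested members rose and 8 fell (3 and 18 with scaling to total counts), with Arg1, which encodes arginase, 3.11-fold higher from 49.4 ± 7.12 to 153 ± 12.8 CPM and the antizyme inhibitor gene Azin1 1.95-fold higher. Of amino acid transporters, 5 of 28 tested members rose and 11 fell (3 and 16 with scaling to total counts). The arginine transporter genes Slc7a1 and Slc7a2 rose 2.9-fold and 2.58-fold and the serotonin transporter gene Slc6a4 3.79-fold. The branched-chain amino acid carrier gene Slc43a2 and the taurine carrier gene Slc6a6 fell 3.99-fold and 2.55-fold, and with Slc6a9 they were the 3 largest falls of that list. Slc3a2, the common heavy chain of many carriers, had a log2 fold change of 0.07 ± 0.12. Of tRNA synthetases and ribosome biogenesis genes, 6 of 53 tested members rose and 4 fell (1 and 25 with scaling to total counts), both shares below those of all genes tested, and 7 fell without resting replicate 2.

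Lipid genes changed in opposite directions. Dgat2, whose enzyme makes triglyceride, lay at 55.5, 61.3 and 55.6 CPM in resting and 660.1, 676 and 713 CPM in stimulated libraries, 11.9-fold higher. Of the fatty acid list, 6 of 44 tested members rose and 18 fell (2 and 32 with scaling to total counts). The desaturase genes Fads1 and Fads2, neighbours in the genome that make polyunsaturated fatty acids, lay at 179, 129 and 126 CPM in resting and 28.6, 29.8 and 29.3 CPM in stimulated libraries and at 102, 63 and 55.6 CPM in resting and 13.8, 15.6 and 13.5 CPM in stimulated libraries. No stimulated value of either reached a resting one, and they were 4.95-fold and 5.14-fold lower. The elongase gene Elovl7 fell 5.31-fold, the acetyl-CoA synthetase genes Acss1 and Acss2 4.49-fold and 3.2-fold, the desaturase gene Scd2 2.93-fold and Cpt1a, the gate of fatty acid oxidation, 2.5-fold. Of the cholesterol list, 1 of 36 tested members rose and 10 fell (1 and 29 with scaling to total counts), and 3 rose without resting replicate 1. Ch25h, whose enzyme makes 25-hydroxycholesterol, was the only rise there (12.2-fold), while the sterol regulator gene Srebf2 fell from 101 ± 15.4 to 53.6 ± 8.39 CPM; Srebf1 had a log2 fold change of -0.25 ± 0.16 and was not called.

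Enzymes of lipid mediators, sphingolipids and phospholipids fell more often than they rose, and 8 of 42 tested members rose and 24 fell (3 and 30 with scaling to total counts). Ptgs2, the inducible cyclooxygenase, lay at 103, 124 and 119.9 CPM in resting and 896, 902 and 1014 CPM in stimulated libraries, and Sphk1, which makes sphingosine 1-phosphate, at 8.46, 7.43 and 8.61 CPM in resting and 29.5, 24.9 and 29.2 CPM in stimulated libraries, 8.12-fold and 3.42-fold higher. Lpcat2, which rebuilds phospholipids and makes platelet-activating factor, lay at 199, 172 and 193 CPM in resting and 34.7, 28 and 31.7 CPM in stimulated libraries, 5.99-fold lower. Alox15 fell 3.09-fold, Plcg1 and Plcb2, which cleave phosphoinositides, 3.92-fold and 2.9-fold, and Hpgds, which makes prostaglandin D2, 2.04-fold. The cyclooxygenase gene Ptgs1 had a log2 fold change of -0.19 ± 0.15 and was not called. Of iron, haem and glutathione genes, 6 of 40 tested members rose and 17 fell (4 and 28 with scaling to total counts), with 11 fallen without stimulated replicate 3. Besides Fth1, Prdx5, Gsr and Sod2, which detoxify oxidants, rose 2.95-fold, 2.68-fold and 2.58-fold. The iron exporter gene Slc40a1 fell 3.91-fold, Slc11a1 2.14-fold, and Hmox1, which encodes haem oxygenase, lay at 509.6, 607 and 655 CPM in resting and 207, 219 and 209 CPM in stimulated libraries, 2.79-fold lower.

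**Figure D4:**
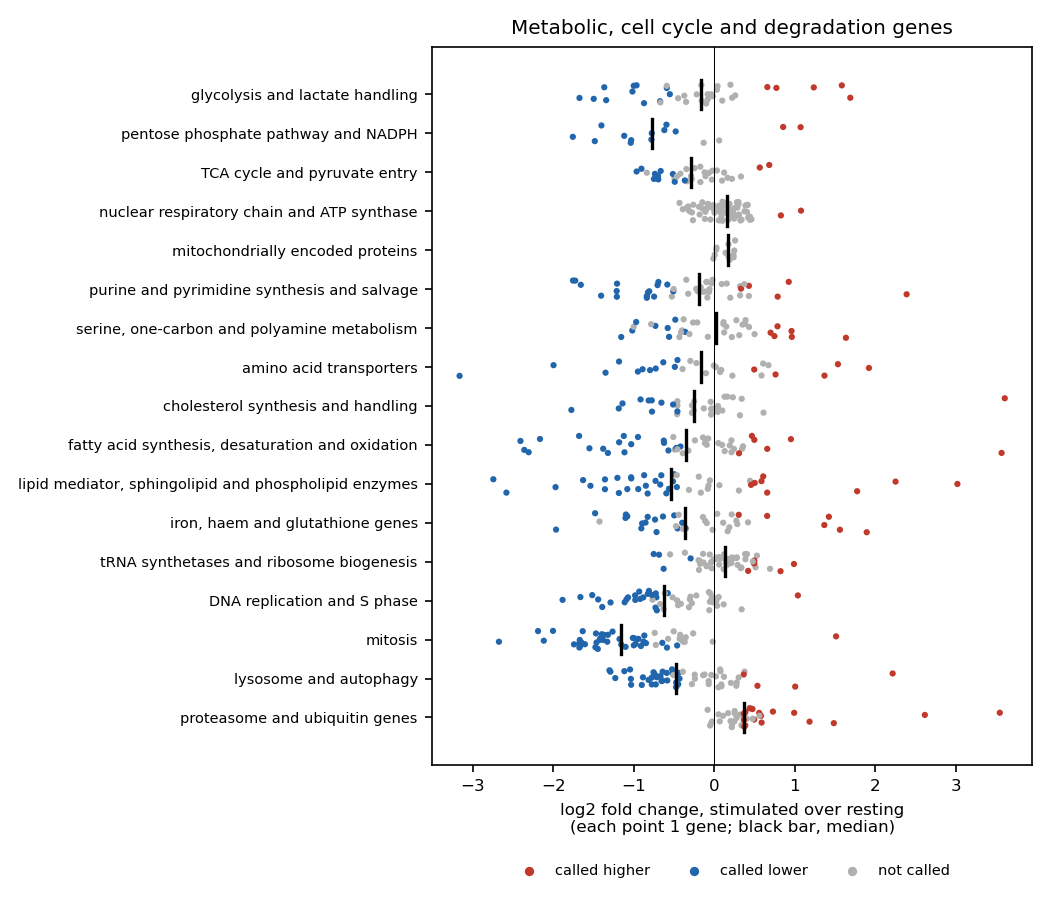
Log2 fold change, stimulated over resting, of each tested member of the metabolic, cell cycle and degradation lists (red, called higher; blue, called lower; grey, not called), with a black bar at the median of the list. The respiratory chain lists sit close to 0 (medians 0.16 and 0.18), mitosis furthest to the left (median -1.16), and Ch25h, Dgat2 and Ptgs2 lie furthest to the right in the lipid lists. With scaling to total counts the median over all genes moved by -0.53.

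Genes of division fell together. Of mitosis genes, 1 of 53 tested members rose and 40 fell (1 and 52 with scaling to total counts), with a median log2 fold change of -1.16 beside 0.06 over all genes tested. As a share of counts the 53 genes took 0.0937%, 0.0963% and 0.0999% in resting and 0.0346%, 0.0326% and 0.033% in stimulated libraries, so the groups did not overlap. Such shares follow total counts and show a larger fall than TMM scaling. In TMM-scaled CPM the sums were 710, 784 and 792 in resting and 389, 369 and 380 in stimulated libraries. The phosphatase gene Cdc25b, which starts mitosis, lay at 22.8, 16.6 and 14.8 CPM in resting and 3.43, 2.17 and 3.15 CPM in stimulated libraries, 6.39-fold lower, and the spindle gene Prc1 fell 4.34-fold. Ckap2l was the single rise, from 9.01 ± 2.24 to 25.3 ± 1.39 CPM. Of DNA replication and S phase genes, 1 of 48 tested members rose and 22 fell (0 and 43 with scaling to total counts), among them the clamp loader gene Rfc2 from 118 ± 10.8 to 41.4 ± 5.16 CPM and the licensing inhibitor gene Gmnn from 13.8 ± 5.46 to 5.28 ± 1.24 CPM, whereas the most abundant, Pcna, had a log2 fold change of 0.03 ± 0.13 and was not called. D cyclins, CDK inhibitors and quiescence genes were mixed: 9 of 24 tested members rose and 7 fell (7 and 13 with scaling to total counts). Cdk6 lay at 59.8, 62 and 66 CPM in resting and 449.9, 464 and 448 CPM in stimulated libraries and Ccnd2, its cyclin partner, at 97.6, 125 and 124 CPM in resting and 444, 442 and 435 CPM in stimulated libraries, 7.26-fold and 3.82-fold higher. The inhibitor genes Cdkn2b and Cdkn1a rose 9.74-fold and 3.26-fold, while Cdkn1b, which encodes p27, lay at 199, 304 and 311 CPM in resting and 118, 125 and 108 CPM in stimulated libraries, 2.32-fold lower, and Cdkn2c fell 3.15-fold.

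Of lysosome and autophagy genes, 4 of 59 tested members rose and 33 fell (2 and 50 with scaling to total counts), with 2 risen without resting replicate 2, stimulated replicate 1 or stimulated replicate 2. The list's summed counts went from 2.14% ± 0.336 (SD, n = 3) of resting to 1.16% ± 0.0202 of stimulated libraries. Such shares follow total counts and show a larger fall than TMM scaling. In TMM-scaled CPM the tested members summed to 19118, 15353 and 16028 in resting and 13183, 12893 and 13518 in stimulated libraries. The lysosomal lipase gene Lipa fell from 246 ± 6.37 to 119 ± 6.08 CPM, the autophagy gene Tecpr1 from 186 ± 40.3 to 79.7 ± 6.39 CPM, Hexa from 229.6 ± 38.8 to 137 ± 10.9 CPM and Naglu from 33.2 ± 5.82 to 13.5 ± 0.809 CPM. Ctsc, the protease that activates granule proteases, went the other way, lay at 244, 218 and 238 CPM in resting and 1075, 1051 and 1126 CPM in stimulated libraries and was 4.65-fold higher, and the autophagy receptor gene Sqstm1 rose 2.01-fold. The sum of monocyte and macrophage markers was lower as well (6130 to 7646 CPM in resting and 4754 to 5058 CPM in stimulated libraries), and its part in this list was not tested. Of the unfolded protein and integrated stress response list, 15 of 38 tested members rose and 4 fell (7 and 18 with scaling to total counts). The chaperone genes Hspa5 and Pdia4 of the endoplasmic reticulum rose 2.05-fold and 2.34-fold and Trib1 5.35-fold, while Ddit3, which encodes the stress factor CHOP, fell from 88.9 ± 23.4 to 45.5 ± 1.23 CPM and its target Trib3 from 7.03 ± 0.852 to 3.07 ± 0.437 CPM.

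Of proteasome and ubiquitin genes, 17 of 41 tested members rose and 0 fell (5 and 8 with scaling to total counts). None fell by edgeR (0 at an unadjusted p of 0.05, 0 by DESeq2 and 0 by limma-voom), but 1 did without resting replicate 1. The number risen was 8, 11 and 8 without stimulated replicates 1, 2 and 3. The largest rises were in Ube2l6, the conjugating enzyme of ISG15, from 27.9 ± 5.33 to 328 ± 12.6 CPM, in the activator genes Psme2 and Psme1, from 107 ± 29.1 to 654 ± 42.7 CPM and from 86.1 ± 18.8 to 241 ± 14.4 CPM, and in the immunoproteasome gene Psmb10, 2.27-fold. All these genes are known to respond to interferon. Of interferon stimulated genes, 39 of 40 tested members rose and 0 fell (31 and 0 with scaling to total counts) (0 lower at an unadjusted p of 0.05 in edgeR, 0 by DESeq2 and 0 by limma-voom), and the guanylate-binding protein genes were the largest: Gbp2 lay at 133, 127 and 128 CPM in resting and 1603, 1507 and 1601 CPM in stimulated libraries, Gbp5 rose 9.79-fold and Gbp7 7.66-fold. Oasl1 had a log2 fold change of 0.52 ± 0.20 and was not called (adjusted p = 0.0622 in edgeR; called higher without resting replicate 1, at 0.0117, without the filter, at 0.00853, and after removal of the length trend, at 0.0383).

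**Figure D5:**
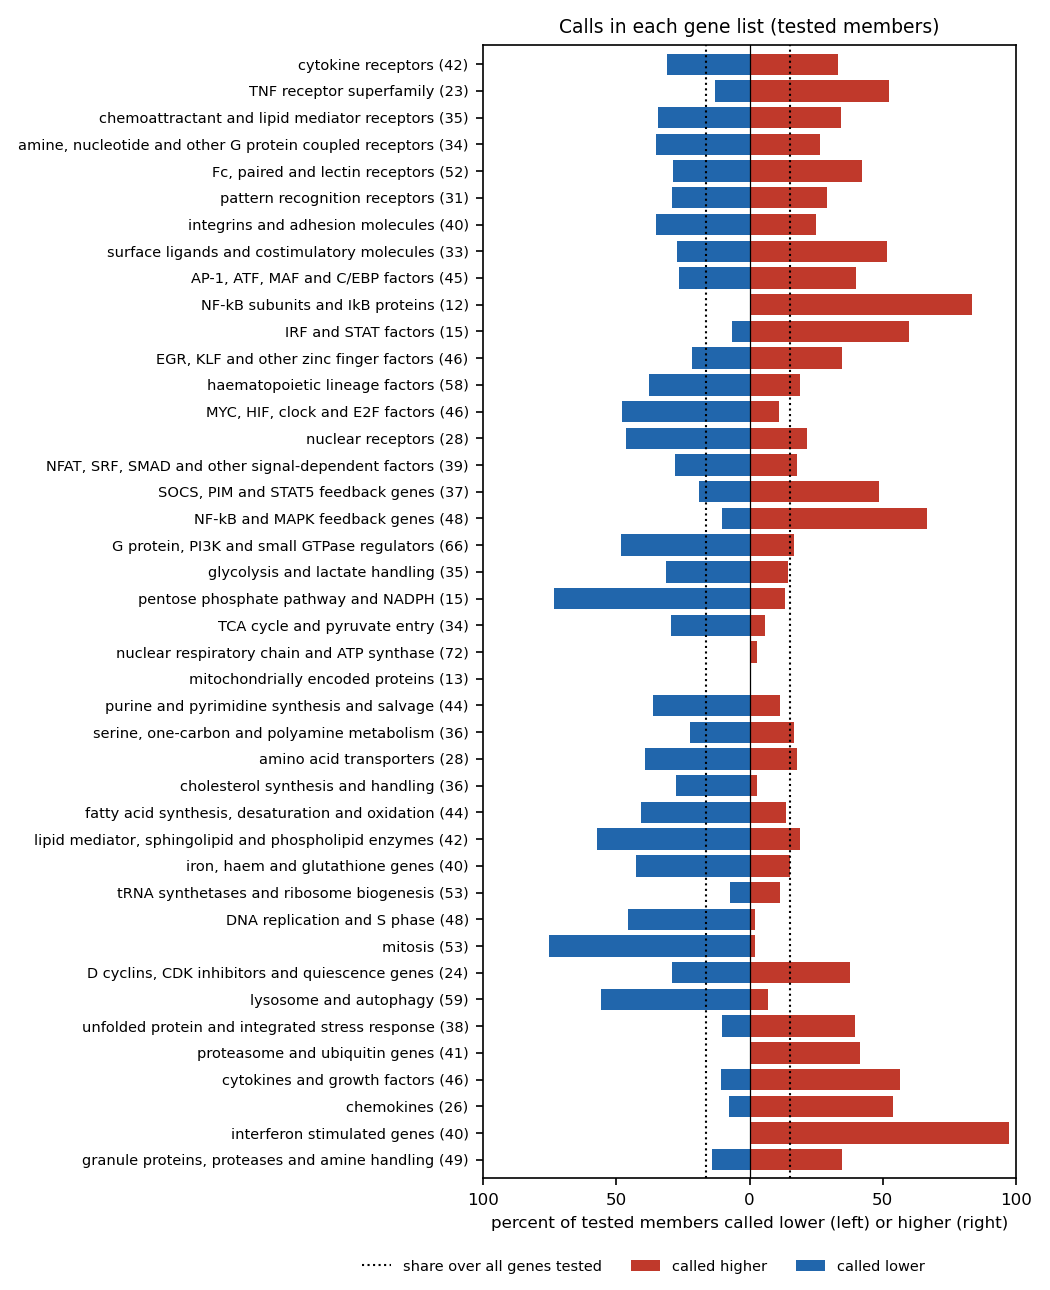
Share of the tested members of each of 42 gene lists called higher (red, to the right) or lower (blue, to the left), in percent, with dotted lines at the shares over all genes tested (15.3% and 16.4%). Among genes that reached 10 CPM, which most members did, the shares were 21.1% and 26.3% and are not drawn. The number of tested members stands in brackets after each name; the NF-kB subunit, proteasome and interferon lists have no blue bar, mitosis, pentose phosphate and lipid mediator lists reach furthest to the left, and the respiratory chain lists are nearly empty. With scaling to total counts 13.2% of all calls were rises in place of 48.3%.

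Secreted products frame these changes. Of the cytokine and growth factor list, 26 of 46 tested members rose and 5 fell (23 and 12 with scaling to total counts), and 8 fell without resting replicate 1. As a share of counts, which follows total counts and not TMM scaling, the list rose from 0.617% ± 0.0307 (SD, n = 3) to 3.05% ± 0.0741. The chemokine list rose from 0.955% ± 0.167 to 3.45% ± 0.164. Il16, a chemoattractant for CD4+ cells, and Grn, which encodes progranulin, were lower, from 65.3 ± 12.5 to 13.2 ± 2.06 CPM and from 328 ± 88.2 to 176 ± 8.27 CPM, and so was the scavenger chemokine gene Cxcl16, from 174 ± 21.9 to 92.8 ± 11.1 CPM. Of granule proteins, proteases and amine handling genes, 17 of 49 tested members rose and 7 fell (14 and 15 with scaling to total counts). Tph1, which makes serotonin, lay at 60.4, 50.9 and 55.3 CPM in resting and 294, 307 and 312 CPM in stimulated libraries, 5.48-fold higher, and Lcn2, which binds bacterial siderophores, rose 5.36-fold. Among the 7 that fell, Rab27a, a GTPase of granule docking, fell from 42.1 ± 2.78 to 14.2 ± 2.18 CPM, Stx3 from 94.6 ± 10.03 to 43.8 ± 3.52 CPM and Unc13d from 42.3 ± 8.09 to 22.7 ± 1.98 CPM. Hdc, which makes histamine, had a log2 fold change of 0.25 ± 0.13 and was not called (adjusted p = 0.162 in edgeR; 0.00102 without resting replicate 1 and 0.0251 after removal of the length trend, where it was called higher).

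Transcript length moved with the result, since the median log2 fold change of genes of at least 10 CPM was 0.23 in the 452 genes up to 750 bases and -0.08 in the 3378 genes above 4000 bases; its part was not tested beyond the removal of the trend, which left 6292 of 6590 calls. Whether counting used strand is not given in the sources used here, so reads cannot be told apart from those of an overlapping gene where exons overlap in the GENCODE vM21 annotation, as they do for Acss2, Adgre5, Ahr, Alox5ap, Azin1, Bcl3, Bhlhe40, Bhlhe41, Bid, CT010467.1, Cables1, Ccnd2, Cd180, Cd7, Cdk6, Cdkn1a, Ch25h, Cish, Ckap2l, Ctsb, Ctsd, Cxcl16, E2f8, Eef2k, Fam117a, Fosl1, Ftl1, G6pdx, Gbp7, Gpi1, Hexa, Hrh2, Icam1, Il16, Il1rap, Il2rg, Il4ra, Junb, Jund, Lilrb4a, Lpcat2, Mxi1, Nfkb2, P2ry1, Plcg1, Prc1, Prdx5, Ptgs1, Rab27a, Rasgrp2, Rfc2, Samd13, Slc2a1, Slc43a2, Slc6a6, Slc6a9, Slc7a2, Sphk1, Sqstm1, Srebf1, Tnfrsf18, Tpbg, Txnip and Zfp36l2.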

How the data were processed

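RNA of 9 libraries of 10000 cells each, labelled as mouse basophils, was measured, and 6 of them, 3 resting and 3 stimulated, carry the contrast described here. Groups and replicate numbers come from the sample titles. The values are raw read counts per gene symbol in 1 table, as deposited by the authors; per the labels' protocols, polyadenylated RNA was amplified over the whole transcriptome by the TAS-Seq workflow before fragmentation and NovaSeq sequencing, so the yield of a library can vary with the length of its transcripts. The labels speak of no molecular identifiers. Bowtie2 2.4.5, cutadapt 4.1 and the build GRCm38 are named, with no role, per the submitters' processing notes; how reads were counted, with strand or without, is not stated there or in the labels. Counting error is only part of the spread between libraries, since amplified reads are not independent molecules.

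Genes were tested in R 4.3.3 with the quasi-likelihood test of edgeR 4.0.16 (with limma 3.58.1 and statmod 1.5.0), after TMM scaling and a low-count filter by filterByExpr with minimum count 10 and minimum total 15, with robust dispersion and Benjamini-Hochberg adjustment over 21341 genes, in 1 fit of 9 libraries with 6 residual degrees of freedom. The steps were tested on simulated data, with changes of either sign planted in a small set of well expressed genes. The simulation was not set up to hold the shift in composition seen here, so it does not test the choice of scaling. Standard errors are the log2 fold change over the root of the F statistic. Total counts ran from 6261446 to 38098584 per library. Each result was computed again with limma-voom, with DESeq2 1.42.0, with RLE scaling, without the filter, on the 2 groups alone, with a replicate block, after thinning to the shallowest library, after removal of a length trend and without each library in turn. Scaling to total counts was added after seeing the data.

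The comparison, the 42 gene lists and the rules were chosen with earlier results of these data known. Named genes are called genes whose groups do not overlap: the 15 largest rises by log2 fold change outside the cytokine and chemokine lists and the 15 largest falls, the 10 largest gains and losses in CPM, and, per list, up to 4 risen and 4 fallen members, with the most abundant member not called beside them. The rises, falls and called list members have at least 10 CPM in the higher group. Predicted genes, accession-like names, pseudogenes and ribosomal protein genes were left out of the first 2 sets. A few named or listed genes are not reported here. Genes that the text adds to these, such as the receptors of the ligands, second members of a family and known partners, were chosen after their values were seen. Positions and overlaps are from GENCODE vM21 (GRCm38), which matched 34294 of 35673 symbols, and promoters from RefSeq (GRCm38.p6).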

Additional observations from a re-analysis of the deposited data

How the results depend on the processing

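Over the alternatives that kept a scaling by the bulk of genes, 5517 to 7153 genes were called (main 6770), and 43.3% to 49.4% of calls were rises. Leaving out each library in turn left 5138 to 6514 calls, of which 44.2% to 49.5% were rises. With scaling to total counts 1326 genes were called higher, 8749 lower and 4965 at least 2-fold changed (main 3273, 3497 and 2941), and 4823 of the main calls were kept. Among genes that the rule takes and that were called under either scaling, scaling to total counts turned the sign of the log2 fold change of Cd200r3 (-0.44), Cd74 (-0.46), Nfe2l2 (-0.46), Stat6 (-0.46), Klf6 (-0.38), Elk4 (-0.38), Mxd1 (-0.026), Nr1h2 (-0.46), Notch2 (-0.53), Mcl1 (-0.35), Zfp36 (-0.38), Atp5b (-0.43), Pnp (-0.10), Adss (-0.20), Slc3a2 (-0.46), Npc2 (-0.48), Slc25a20 (-0.028), Lpl (-0.32), Nolc1 (-0.026), Tars (-0.031), Pcna (-0.50) and Atg3 (-0.16), most of which were not called in the main test. Other genes of the text whose sign turned include Jak1 (-0.16), Stat3 (-0.43), Hdc (-0.29), Rela (-0.18), Slc2a1 (-0.33) and Cd40 (-0.105). The same scaling called lower Cd200r3, G6pdx, Gnai2, Nfe2l2, Pcna, Ptgs1, Slc3a2, Spi1, Srebf1 and Tlr2, which the main test did not call. Il17ra, not called with all libraries, ranged from -0.45 (without stimulated replicate 3, where it was called lower) to 0.42 (without stimulated replicate 2) with 1 library left out. The cause of these shifts was not tested. The labels give the groups the same replicate numbers, but same-numbered libraries deviated together with correlations of 0.05, 0.34 and 0.00 only, so the numbers were not taken as pairs; with the replicate block 6489 genes were called, 6320 of them among the main calls. Resting replicate 3 has the least depth, and after thinning all libraries to its total 15963 genes could be tested and 5517 were called.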

Other observations

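Genes that the lists do not hold were looked at after their values were seen. Serpina3h, between Serpina3g and Serpina3i on chromosome 12 (104247905 to 104253669), rose from 3.87 ± 0.281 to 51.6 ± 3.33 CPM. The retinaldehyde dehydrogenase gene Aldh1a2 rose 10.5-fold from 2.01 ± 0.777 to 22.5 ± 3.14 CPM, beside Aldh1a3, and Dhrs3, which turns retinaldehyde back to retinol, fell from 31.1 ± 3.54 to 5.83 ± 1.06 CPM.

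Symbols of olfactory and vomeronasal receptors, genes known from sensory neurons, were called higher in these cells more often than all tested genes (15.3%). Of 488 tested Olfr symbols, 135 were higher and 2 lower, with a median log2 fold change of 0.57, and of 183 Vmn1r and Vmn2r symbols 79 were higher and 0 lower (0 at an unadjusted p of 0.05, and 0 by DESeq2 and limma-voom). Together they summed to 2520.0, 2664 and 2482 CPM in resting and 5174, 5297 and 4958 CPM in stimulated libraries, so the groups did not overlap. Most single symbols were low: the median level was 1.06 CPM in resting and 1.54 CPM in stimulated libraries for Olfr. For Vmn symbols it was 2.34 and 3.59 CPM, and 100 of the 671 symbols had a stimulated mean of at least 10 CPM. With scaling to total counts 34 and 13 Olfr symbols and 12 and 2 Vmn symbols were higher and lower, and after thinning to the shallowest library 100 and 1 of 250 and 57 and 0 of 138. The median log2 fold changes with scaling to total counts were 0.045 for Olfr and 0.087 for Vmn symbols, beside -0.47 over all genes tested (0.06 in the main test). Single features of this kind and unnamed transcripts changed by like amounts: Olfr1033 rose 7.21-fold, Vmn1r43 7.13-fold, Gm20400 7.54-fold to 13529 CPM, and AC160336.1, a noncoding locus on chromosome 14 (44544055 to 44637201), 7.39-fold to 34435 CPM. AC160336.1, Gm20400 and AC109138.2 took 0.911%, 1.1% and 1.02% of resting and 5.34%, 5.56% and 5.08% of stimulated counts. What these reads derive from was not tested.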
